A study of Mus musculus with 4 samples.

Results

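The genes of the Myc and AP-1 transcription factors were examined in 4 lines of L1210, a mouse lymphocytic leukemia cell line of DBA subline 212. The members were Myc, Mycn, Max, Mxd1, Jun, Junb, Jund, Fos, Fosb and Fosl1, taken by their gene symbol in the deposited table, and they made up 10 of its 24561 genes. They were read by 11 probes, since Mxd1 had 2 probes and each of the other members had 1. The lines were made by lentiviral infection and sorted for GFP as stable lines. L1210-control is the line labelled as the control. The other lines each overexpressed 1 variant of Fbxw11 (named HOS or β-TrCP2 as well), the substrate-binding subunit of an SCF ubiquitin ligase, with variant a in L1210-Fbxw11a, variant c in L1210-Fbxw11c and variant d in L1210-Fbxw11d. Fbxw11a is the full-length form, whereas the c and d variants lack coding exons. The lines are called control, Fbxw11a, Fbxw11c and Fbxw11d cells from here on. Each line is a single sorted population measured on 1 array, so that a difference between lines has no replicate check and no p-value is given.

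Myc proteins activate genes of growth and of ribosome and nucleotide synthesis as dimers with Max, and Mxd1 competes for Max in dimers that repress the same genes. AP-1 is a dimer of a Jun protein with another Jun protein or with a Fos protein, and its subunits differ in how strongly they activate transcription. Fos, Fosb, Jun and Junb are immediate early genes, whose mRNAs rise and decay rapidly after growth factor, stress or MAP kinase signals, and Jun, Fos and Myc proteins are themselves degraded through ubiquitin ligases. The arrays measured mRNA and not protein.

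Values are Agilent spot signals (fluorescence intensity) divided by the 75th percentile of their own array and written on the scale of the control array. Control, Fbxw11a and Fbxw11c cells shared 1 slide, whereas Fbxw11d cells were on another slide, and slide and variant cannot be told apart for them. The E1A spike-in RNAs were added in the laboratory before labelling and were read here by 8 probes. After the scaling on the 75th percentile their mean log2 difference from the control array was 0.13, 0.15 and -0.59. These values are for the Fbxw11a, Fbxw11c and Fbxw11d arrays, with an SD between probes of 0.05, 0.10 and 0.09. The brighter of 2 Fbxw11 probes was 1.24-, 1.21- and 1.02-fold of control cells in Fbxw11a, Fbxw11c and Fbxw11d cells, and whether these probes read the introduced variants was not tested. Of 13 lymphoid markers, 8 were well above background in every line. Their summed signal was 4599 in control cells, 4931 in Fbxw11a cells, 4841 in Fbxw11c cells and 4515 in Fbxw11d cells. Cd79b, Ebf1, Igll1, Cd3g and Thy1 were not above background in any line. Of 8 macrophage and monocyte markers 7 were well above background in every line, with a summed signal of 14718 in control cells and of 11212 to 12477 in the variant lines, while Lyz2 was not above background. Of 8 fibroblast and stromal markers, 3 to 5 were above background, with a summed signal of 309 to 365. The part of these markers in the results below was not tested, and in such bulk samples fewer cells of a type and less RNA per cell cannot be told apart.

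The members covered a wide span of signal, from a probe at background to one among the bright signals of the array. The 4 lines lay within 2-fold of each other at every member that was well above background. The range at Fos, 0.70 on the log2 scale, was still wider than that of 82.1% of genes. Mycn was not well above background in any line, and the other 9 members were well above background in all 4 lines. No member reached a 2-fold difference in any comparison of lines. By the same rule 4.45% of the genes compared differed by at least 2-fold between Fbxw11a and control cells, 3.88% between Fbxw11c and control cells, and 5.75% between Fbxw11d and control cells. Between variant lines the share was 4.22% for Fbxw11a cells against Fbxw11c cells, 6.02% for Fbxw11a cells against Fbxw11d cells, and 4.23% for Fbxw11c cells against Fbxw11d cells.

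**Figure D1:**
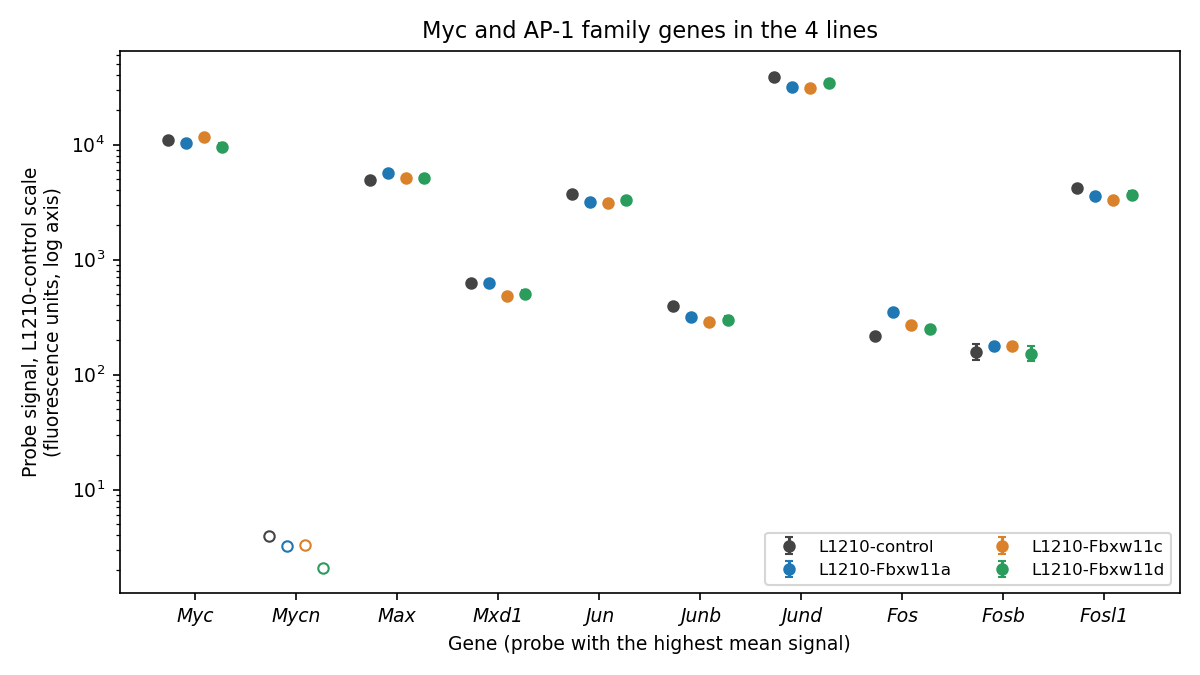
Signal of each member in the 4 lines, for the probe with the highest mean signal, on a log axis on the control scale. Filled points are probes well above background with bars of 1 SD of a single spot at that brightness (often smaller than the point), and open points (Mycn) were not well above background. Signals are not comparable between genes, and within each gene the 4 lines lie within 2-fold.

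Smaller differences were set against the spread of spots. The array carries 399 probes on 10 spots each, and from these the SD of 1 spot at the brightness of each member was taken, which ran from 0.05 to 0.22 on the log2 scale over the 9 measured members. A member was called apart when its log2 ratio exceeded 2 times the SD that such spots give to a ratio. The SD is that of 1 spot per array, also for Fos and Myc, whose values are means of 10 and 2 spots. This spread covers printing, hybridisation and scanning within 1 array, and leaves out culture, sorting, RNA extraction and labelling. A further error of 1 spot, kept with the signals, was larger than this SD at most measured members. In control cells it was 375 of 3753 at Jun, 3861 of 38606 at Jund and 420 of 4200 at Fosl1. The 2 SD rule was not applied with this larger error, and the calls rest on the narrower one. By this rule 6 of the 9 measured members were apart from control cells in Fbxw11a cells, where 24.7% of all genes were, 6 of 9 in Fbxw11c cells (26.7% of all genes) and 2 of 9 in Fbxw11d cells (30.2% of all genes). Between variant lines 2 members were apart for Fbxw11a cells against Fbxw11c cells (22.8% of all genes), 2 for Fbxw11a cells against Fbxw11d cells (29.4%) and 1 for Fbxw11c cells against Fbxw11d cells (22.9%). With normexp background correction 1 member (Fos, at 0.56 on the log2 scale), in place of 6, was apart in Fbxw11a cells. Other scalings changed 2 calls there, since Max was no longer apart with quantile normalization and the spike-in RNAs, and Myc was apart with the latter (-0.21), and 1 call in Fbxw11c cells, where Fos was not apart with the spike-in RNAs (0.18). In Fbxw11d cells the members apart were Mxd1 and Junb, both lower, in the main setting. They were Mxd1, Junb, Myc, Jun and Fosl1, all lower, and Fos, higher, with quantile normalization and with the deposited values. With median centring they were Max and Fos, both higher, and with the spike-in RNAs all measured members except Junb and Fosb, all higher. The 3 comparisons with control cells share that single array, so that its own deviation enters all of them.

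**Figure D2:**
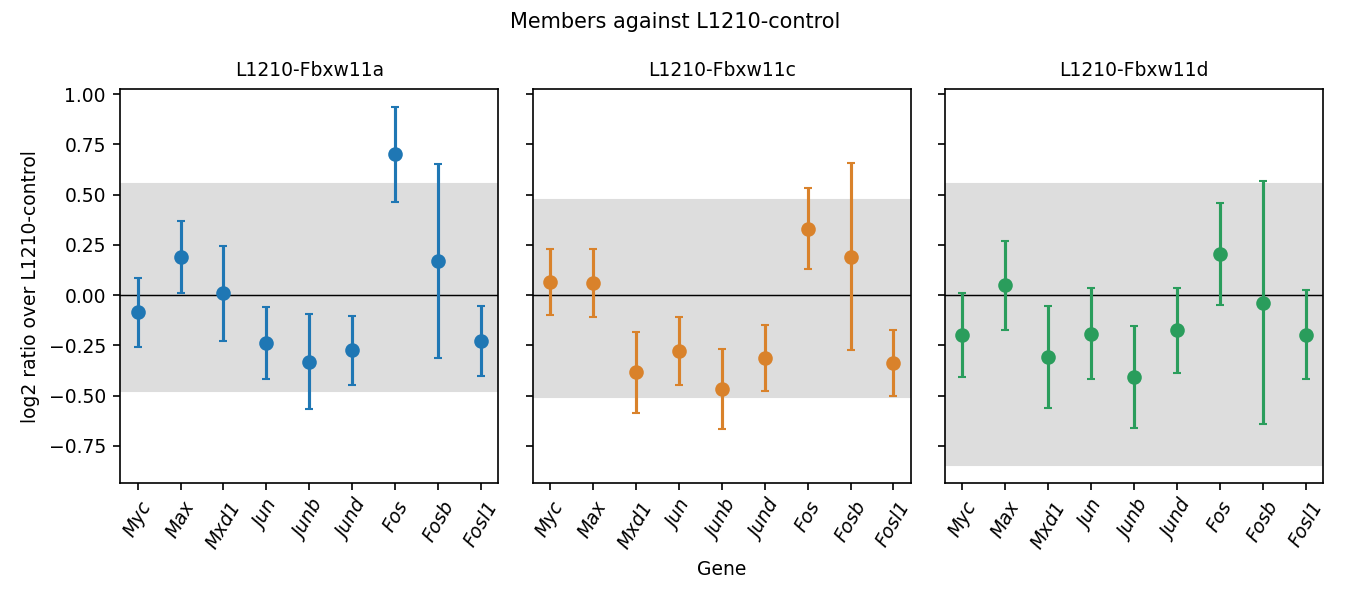
log2 ratio of each measured member over control cells in the 3 variant lines, with bars of 2 SD of a ratio between 2 single spots. The grey band holds the middle 90% of genes well above background on both arrays (from -0.48 to 0.55 in Fbxw11a cells, -0.51 to 0.47 in Fbxw11c cells and -0.85 to 0.55 in Fbxw11d cells). Fos in Fbxw11a cells is the single point outside the band, and the points of Fbxw11d cells shift with the scaling.

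In the Myc network, Myc mRNA differed little between the lines. The Myc probe (chr15:61821417-61821476, plus strand, mm9), printed on 2 spots, gave a signal of 11006 in control cells, 10371 in Fbxw11a cells, 11525 in Fbxw11c cells and 9592 in Fbxw11d cells. Fbxw11c cells were highest and Fbxw11d cells lowest, 1.20-fold from each other, and neighbours in this order differed by less than 2 SD of single spots. The difference between these 2 lines (log2 0.26) exceeded spot error, as it did with quantile normalization (0.28) and the deposited values (0.27), but was 0.18 and within it with normexp, 0.12 and within it with median centring, and turned to -0.48 with the spike-in RNAs. The log2 ratio of Fbxw11a over Fbxw11c cells was -0.15 and within spot error, but -0.22 and apart with median centring. Against control cells the log2 ratio of Myc was -0.09 in Fbxw11a cells, 0.07 in Fbxw11c cells and -0.20 in Fbxw11d cells, none of them apart, and the last was -0.28 and apart with quantile normalization and positive after centring on the median or scaling on the spike-in RNAs. Its range over the 4 lines, 0.26 on the log2 scale, was wider than that of 33.2% of 16249 genes well above background in every line.

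Max, the obligate partner of Myc, had signals of 4923 in control cells, 5620 in Fbxw11a cells, 5130 in Fbxw11c cells and 5091 in Fbxw11d cells. Fbxw11a cells were 1.14-fold above control cells, a difference beyond spot error that was within it with quantile normalization (log2 0.18), normexp (0.22) and the spike-in RNAs (0.06), and the other lines differed from control cells by at most 0.06 on the log2 scale. Its range was 0.19 on the log2 scale, wider than that of 17.8% of genes, and it was the narrowest of the measured members in this setting but not with normexp (0.22, beside 0.17 for Fosb), median centring (0.27, beside 0.22 for Myc) or the spike-in RNAs (0.73, beside 0.55 for Fosb). Mycn, a Myc paralog known from the nervous system and from progenitor cells, gave signals of 3.95, 3.22, 3.30 and 2.07 in control, Fbxw11a, Fbxw11c and Fbxw11d cells, all at background, so that no fold was computed.

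Mxd1, the repressor that competes with Myc for Max, was lower in Fbxw11c cells than in control cells at both of its probes. The brighter probe (chr6:86599053-86599112, minus strand, mm9) gave 625 in control cells, 628 in Fbxw11a cells, 478 in Fbxw11c cells and 504 in Fbxw11d cells. The dimmer probe (chr6:86597190-86597249, minus strand, mm9) gave 257, 304, 208 and 236 in the same order. At both probes Fbxw11a cells were highest and Fbxw11c cells lowest, with control and Fbxw11d cells between them, although with the spike-in RNAs the brighter probe was highest in Fbxw11d cells. Fbxw11c cells were 1.31-fold below control cells at the brighter probe and 1.23-fold below at the dimmer one, and both were apart by spot error. The probes disagreed on the other lines: Fbxw11a cells were level with control cells at the brighter probe (log2 ratio 0.01) and above them at the dimmer probe (0.25), while Fbxw11d cells were apart from control cells at the brighter probe (-0.31, but -0.09 and within spot error with median centring) and not at the dimmer one (-0.12). Between Fbxw11a and Fbxw11c cells, which lay on the same slide and do not involve the control array, Mxd1 was 1.31-fold and 1.46-fold higher in Fbxw11a cells at the brighter and dimmer probes. For Fbxw11d cells the direction turned when the arrays were scaled on the spike-in RNAs (0.28 at the brighter probe).

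Among the AP-1 genes, the Jun genes and Fosl1 gave lower signals in the variant lines than in control cells and Fos gave higher ones. For Fbxw11d cells the lower values of Jun, Jund and Fosl1 turned positive after centring on the median or scaling on the spike-in RNAs, that of Junb after scaling on the spike-in RNAs, and Fos stayed above control cells in all 3 lines under each setting tried.

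Jun, the founding member of AP-1 and a strong activator, gave signals of 3753 in control cells, 3179 in Fbxw11a cells, 3090 in Fbxw11c cells and 3285 in Fbxw11d cells (chr4:94716928-94716987, minus strand, mm9). Control cells were highest and the 3 variant lines lay within 1.06-fold of each other. The log2 ratio to control cells was -0.24 in Fbxw11a cells and -0.28 in Fbxw11c cells, both apart by spot error, and -0.19 in Fbxw11d cells, which was not.

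Junb, which activates more weakly than Jun and can oppose it, had the lowest ratios of the members in all 3 variant lines, although the value in Fbxw11d cells turned positive with spike-in scaling. Its signals were 398 in control cells, 317 in Fbxw11a cells, 288 in Fbxw11c cells and 300.2 in Fbxw11d cells (chr8:87501881-87501940, minus strand, mm9). Control cells stood above the 3 variant lines, whose differences among themselves were within spot error. Control cells were 1.26-fold above Fbxw11a cells, 1.38-fold above Fbxw11c cells and 1.33-fold above Fbxw11d cells, and each was apart, although the difference was within spot error in Fbxw11d cells with median centring (log2 ratio -0.19) and in Fbxw11a cells with normexp (-0.26). On the log2 scale these were -0.33, -0.47 and -0.41, at the 9.11, 5.73 and 13.4 percentile of the ratios of all genes.

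Jund, the Jun gene with the steadiest expression in resting cells, gave 38606 in control cells, 31894 in Fbxw11a cells, 31064 in Fbxw11c cells and 34177 in Fbxw11d cells (chr8:73224436-73224495, plus strand, mm9). Its log2 ratio to control cells was -0.28 and -0.31 in Fbxw11a and Fbxw11c cells, both apart, and -0.18 in Fbxw11d cells, which was not. Fosl1, which encodes Fra-1, a Fos protein without the strong activation domain of Fos, gave 4200 in control cells, 3583 in Fbxw11a cells, 3319 in Fbxw11c cells and 3662 in Fbxw11d cells, with log2 ratios of -0.23, -0.34 and -0.20, the first and second of them apart. In this setting Jun, Junb, Jund and Fosl1 were all highest in control cells and lowest in Fbxw11c cells. With median centring Jun, Jund and Fosl1 were highest in Fbxw11d cells and Jun and Jund lowest in Fbxw11a cells, with normexp Junb was lowest in Fbxw11d cells and Jund in Fbxw11a cells, and with the spike-in RNAs all 4 were highest in Fbxw11d cells. Among the variant lines they differed by at most 0.14 on the log2 scale, within 2 SD of single spots. With median centring Jun, Jund and Fosl1 differed beyond it from Fbxw11d cells, with log2 ratios down to -0.26, -0.31 and -0.29, and with the spike-in RNAs all 4 did, down to -0.83, -0.80, -0.88 and -0.88 for Jun, Junb, Jund and Fosl1. Their ranges over the 4 lines were 0.28, 0.47, 0.31 and 0.34 beside a median of 0.35 over all genes.

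Fos, the immediate early partner of the Jun proteins, had the largest difference from control cells among the members in Fbxw11a cells, whereas Junb lay farthest in Fbxw11c cells (except with median centring) and in Fbxw11d cells (except with median centring and the spike-in RNAs). Fos also had the widest range over the lines except with the spike-in RNAs (0.79, beside 0.88 for Fosl1). Its probe (chr12:86817900-86817959, plus strand, mm9) is printed on 10 spots of each array, which gives an error of its own. The 10 spots ran from 203 to 248 with a median of 212 in control cells, from 320 to 407 with a median of 349 in Fbxw11a cells, from 251 to 311 with a median of 263 in Fbxw11c cells, and from 213 to 276 with a median of 252 in Fbxw11d cells. On this scale the spots of Fbxw11a cells lay above every spot of the other arrays, those of Fbxw11c cells lay above those of control cells, and those of Fbxw11d cells overlapped both control and Fbxw11c cells. The mean signal was 216 ± 13.4 in control cells, 351 ± 26.9 in Fbxw11a cells, 272 ± 21.4 in Fbxw11c cells and 249 ± 21.1 in Fbxw11d cells (SD, n = 10 spots of 1 array, which are not biological replicates).

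**Figure D3:**
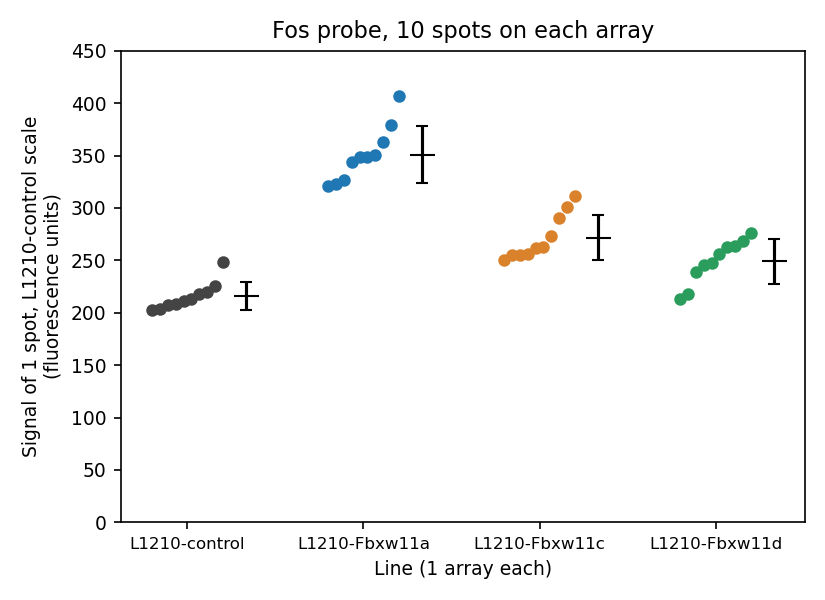
Signal of each of the 10 Fos spots on each array, drawn in order of signal, on the control scale with a linear axis from 0. Horizontal marks with bars are the mean and SD of the 10 spots, which are technical. The spots of Fbxw11a cells (320 to 407) lie above all others on this scale (with the spike-in RNAs the mean is higher in Fbxw11d cells), whereas those of Fbxw11d cells (213 to 276) overlap those of control cells (203 to 248).

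Fos was 1.62-fold of control cells in Fbxw11a cells, 1.26-fold in Fbxw11c cells and 1.15-fold in Fbxw11d cells, that is 0.70, 0.33 and 0.20 on the log2 scale. The first and second were apart by the error of single spots and the third was not, although it was with quantile normalization (0.26), median centring (0.42) and the spike-in RNAs (0.79). This error is not reduced for a mean of 10 spots. A Fos ratio called not apart was therefore not shown to lie within the error of that mean. The ratio in Fbxw11a cells exceeded that of 96.8% of all genes, and those in Fbxw11c and Fbxw11d cells exceeded 90.6% and 72.1%. Fbxw11a cells, the line with the full-length form, was also apart from the lines with the shorter variants, 1.29-fold above Fbxw11c cells and 1.41-fold above Fbxw11d cells, while Fbxw11c and Fbxw11d cells differed by 1.09-fold and were not apart. The position of Fbxw11d cells rested on the scaling: with the spike-in RNAs the log2 ratio of Fbxw11a over Fbxw11d cells turned to -0.22, not apart, and that of Fbxw11c over Fbxw11d cells to -0.61, which was apart, while Fbxw11a cells stayed above Fbxw11c cells (0.40). Over the 4 lines the range of Fos was wider than that of 82.1% of genes.

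Fosb, another immediate early Fos gene, gave 157 in control cells, 176 in Fbxw11a cells, 179 in Fbxw11c cells and 152 in Fbxw11d cells, with log2 ratios of 0.17, 0.19 and -0.04. No line was apart from another at Fosb in this setting, although with the spike-in RNAs both Fbxw11a and Fbxw11c cells were apart from Fbxw11d cells (log2 ratios of -0.51). Its probe lies at a brightness where a ratio of single spots to control cells has an SD of 0.23 to 0.30.

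The promoters of Fos, Jun and Junb are shown because these immediate early genes differed from control cells in opposite directions in Fbxw11a and Fbxw11c cells. In Fbxw11d cells the direction of Jun and Junb rested on the scaling. The RefSeq table (GRCm38.p6) held 8 of the 10 members, without Myc and Fosl1. The 250 bases before the annotated start were searched on both strands for CACGTG (the E-box of Myc and Max), TGANTCA (the AP-1 site), TGACNTCA (the ATF site), TGACG (the core of the CREB site, which can overlap the ATF site), CCAAT (the NF-Y site), TATAAA (the TATA box), ATCAAAG (the TCF site), the CArG box of serum response factor and the κB site. Capitals mark the matches.
Fos, chr12:85473640-85473889, strand +: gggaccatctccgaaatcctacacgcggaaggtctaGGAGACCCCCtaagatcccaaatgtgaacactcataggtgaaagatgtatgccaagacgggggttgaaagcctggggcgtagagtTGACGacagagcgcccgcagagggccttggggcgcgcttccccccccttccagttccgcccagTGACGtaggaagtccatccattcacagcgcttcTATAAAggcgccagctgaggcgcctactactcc
Jun, chr4:95052223-95052472, strand -: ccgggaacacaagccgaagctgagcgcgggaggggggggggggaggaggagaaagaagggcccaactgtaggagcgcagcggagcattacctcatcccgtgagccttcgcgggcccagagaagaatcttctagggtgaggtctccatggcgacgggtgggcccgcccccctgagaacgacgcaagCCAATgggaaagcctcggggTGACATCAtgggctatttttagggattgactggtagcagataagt
Junb, chr8:84978749-84978998, strand -: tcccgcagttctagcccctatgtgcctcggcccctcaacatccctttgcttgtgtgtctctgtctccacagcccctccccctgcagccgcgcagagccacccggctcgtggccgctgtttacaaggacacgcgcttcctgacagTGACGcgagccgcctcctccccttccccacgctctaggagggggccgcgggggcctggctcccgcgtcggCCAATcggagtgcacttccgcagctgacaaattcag

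In the Fos sequence the capitals are, from left to right, a κB match on the minus strand, TGACG starting 129 and 66 bases before the annotated start, and TATAAA starting 33 bases before it. The Jun sequence held CCAAT at 65 bases and TGACATCA at 45 bases before the start, and the Junb sequence held TGACG at 106 bases and CCAAT at 36 bases. The Fosb window shared with Fos a TGACG, 60 bases before its start, and a κB match, and Mxd1 held 4 CCAAT matches. The windows of Jund, Max and Mycn held none of the motifs searched, and no member's window held an E-box, an AP-1 site, a TCF site or a CArG box. Among 32851 windows of the same length TGACG was found in 17.8%, TGACNTCA in 7.49%, CCAAT in 33.8%, TATAAA in 12.4%, a κB match in 7.25%, TGANTCA in 6.75%, CACGTG in 6.02%, ATCAAAG in 3.21% and a CArG box in 1.47%. A match is a description of the letters and no evidence of binding, and a missing match says nothing of the factor.

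The genes whose values over the 4 lines lay nearest to those of Fos, by Euclidean distance over the 4 centred log2 values among 16248 genes, were Krtap4-9, Commd7, Ano1, Gm4419 and Rasl11b, at 0.03 to 0.09 beside a median of 0.59 over all genes. With 4 points and 1 array each this likeness is a description only. Of the other members Max lay nearest to Fos (0.37) and Junb farthest (0.76).

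The rest of each network was described from 7 lists holding 88 genes. Beyond spot error, 13.7% of all genes were higher and 11.1% lower in Fbxw11a cells than in control cells, 16.1% higher and 10.6% lower in Fbxw11c cells, and 17.9% higher and 12.3% lower in Fbxw11d cells. Partners of Myc and Max other than the members had signals near those of control cells: none of the 7 genes compared, of 10 in the list, reached 2-fold in any line, and their median log2 ratio was -0.07 in Fbxw11a cells, -0.12 in Fbxw11c cells and 0.15 in Fbxw11d cells, beside 0.01, 0.02 and 0.04 over all genes. By spot error 1 was higher and 3 lower in Fbxw11a cells, 1 higher in Fbxw11c cells, and 2 higher and 1 lower in Fbxw11d cells. Mxd3, a repressor related to Mxd1, had signals of 703 in control cells, 743 in Fbxw11a cells, 1017 in Fbxw11c cells and 1004 in Fbxw11d cells, so that it was higher in the lines in which Mxd1 was lower, although Mxd1 in Fbxw11d cells turned positive with spike-in scaling. Mnt, a Max-binding repressor, gave 8767, 6773, 7970 and 8565 in the same order. Genes in these lists that are not at least 2-fold apart and measured in all 4 lines were named after their values were seen.

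Of the 13 AP-1 dimer partners, 11 were above background on both arrays in each comparison. Of these 1 was higher and 3 lower by spot error in Fbxw11a cells, 1 higher and 4 lower in Fbxw11c cells, and 1 higher and 3 lower in Fbxw11d cells, with medians of -0.10, -0.18 and -0.10. Atf3, a stress-induced partner of Jun, gave 1332 in control cells, 1176 in Fbxw11a cells, 968 in Fbxw11c cells and 987 in Fbxw11d cells, and Fbxw11c and Fbxw11d cells were apart from control cells. Jdp2, a repressor that dimerises with Jun, was higher beyond spot error in Fbxw11c and Fbxw11d cells (0.19 and 0.41). Fosl2, which encodes Fra-2, gave 2759, 2583, 2541 and 2582 in the same order and was not apart in any line.

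The 8 genes that control Myc protein turnover were all measured, and none reached 2-fold. They had median log2 ratios of 0.07, 0.14 and 0.26 in Fbxw11a, Fbxw11c and Fbxw11d cells, and by spot error 2, 3 and 5 were higher and none was lower. Fbxw7, the F-box protein that recognises phosphorylated Myc, gave 1261 in control cells, 1460 in Fbxw11a cells, 1479 in Fbxw11c cells and 1613 in Fbxw11d cells. Skp2, another F-box protein that binds Myc, gave 1388, 1612, 1674 and 1787 in the same order. Both were apart from control cells in every variant line at these probes, and the dimmer Fbxw7 probe gave smaller log2 ratios of 0.06, 0.07 and 0.16. The highest median was that of the Fbxw11d array, on which the spike-in RNAs stood at -0.59 against the control array, and their part in it was not tested.

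Among 13 MAP kinases and other inputs to Fos and Jun transcription, all measured, 1 gene passed 2-fold. Mapk8, which encodes the Jun kinase JNK1, gave 131 in control cells, 130 in Fbxw11a cells, 97.2 in Fbxw11c cells and 278 in Fbxw11d cells at its brightest probe, 2.12-fold above control cells in the last line. Its other probes gave 1.60-fold and 1.20-fold there, and neither was beyond spot error. Dusp1, a phosphatase that inactivates MAP kinases and itself an immediate early gene, gave 484 in control cells, 781 in Fbxw11a cells, 853 in Fbxw11c cells and 721 in Fbxw11d cells, and was higher beyond spot error in all 3 lines. Elk3, a serum response factor partner at the Fos promoter, gave 4204, 7343, 5106 and 4558 in the same order. At Elk3, as at Fos, Fbxw11a cells were highest and control cells lowest, and a further Elk3 probe gave 1.71-fold, 1.27-fold and 1.31-fold while the dimmest gave 1.32-, 0.99- and 0.87-fold of control cells. Mapk3, which encodes the kinase ERK1, was lower beyond spot error in Fbxw11a and Fbxw11c cells (-0.19 and -0.28), and Elk4, a relative of Elk3, in Fbxw11d cells (-0.53). The medians of the list were 0.01, 0.11 and 0.06, and 3 genes were higher in each line while 1, 1 and 2 were lower by spot error.

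**Figure D4:**
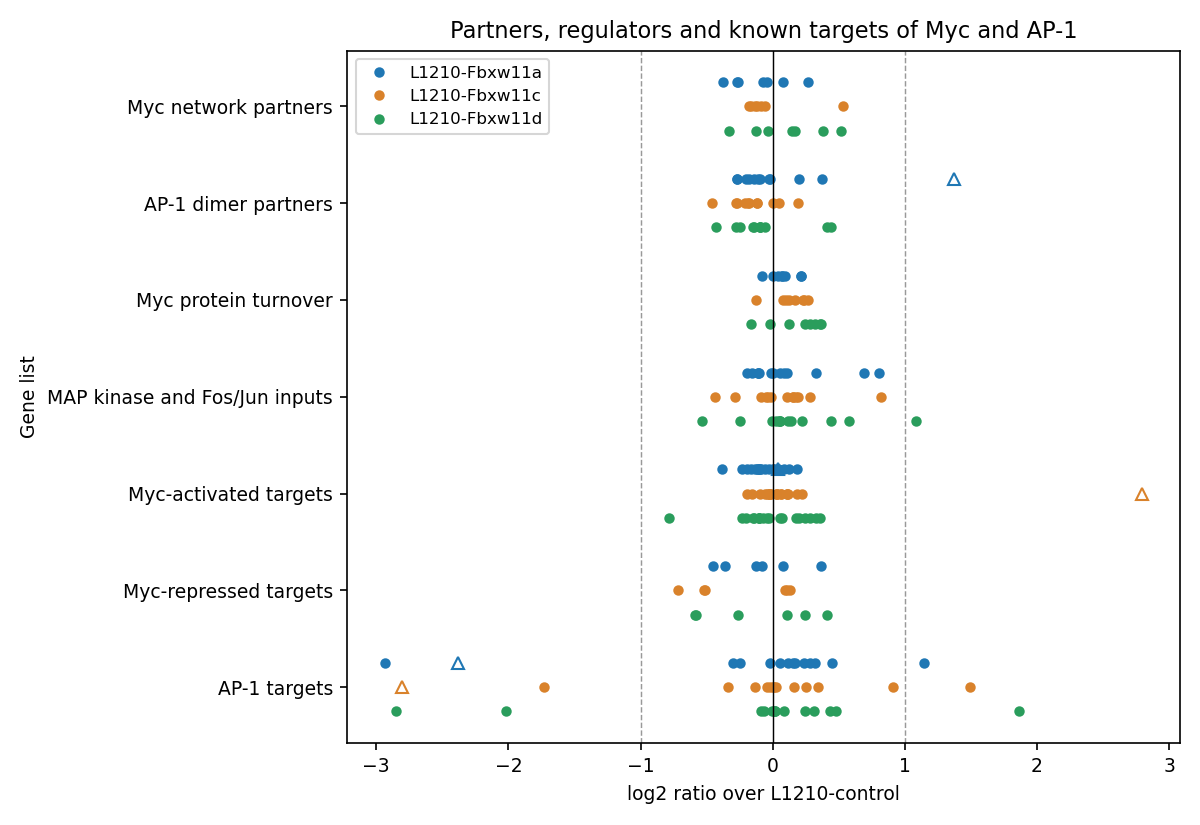
log2 ratio over control cells of every compared gene in the 7 lists, with 1 row of points per line and dashed lines at 2-fold. Open triangles are bounds, where 1 of the 2 arrays was not well above background. Most points lie within 2-fold, and the AP-1 targets Il6 and Csf2 on the left and Fasl on the right lie outside it in all 3 lines.

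Textbook targets of Myc lay near control cells, as Myc itself did. Of 20 activated targets, 19 were measured on both arrays in each comparison, with medians of -0.07, 0.03 and -0.04, and by spot error 1 was higher and 3 lower in Fbxw11a cells, 2 higher and 1 lower in Fbxw11c cells, and 4 higher and 2 lower in Fbxw11d cells. Odc1, the rate-limiting enzyme of polyamine synthesis, was at log2 ratios of -0.11, -0.10 and -0.08, and was not apart in any line at its brightest probe. Its 3 other probes ran from -0.26 to -0.11 in Fbxw11a cells, where the lowest of them and 1 other (-0.17) were apart, from -0.21 to -0.02 in Fbxw11c cells, where the lowest was apart, and from -0.16 to 0.07 in Fbxw11d cells, where none was. Cad, an enzyme of pyrimidine synthesis, gave 290.0 in control cells, 307 in Fbxw11a cells, 285 in Fbxw11c cells and 169 in Fbxw11d cells. Ccnd2, which encodes cyclin D2, was past 2-fold in Fbxw11c cells, at a signal of 125 and at least 6.94-fold above control cells, where it was not well above background.

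The 6 genes that Myc represses were all measured, and none reached 2-fold. By spot error 1 was higher and 1 lower in Fbxw11a cells, 3 were lower and none higher in Fbxw11c cells, and 2 were higher and 3 lower in Fbxw11d cells. Gadd45a, a growth arrest gene, gave 1915 in control cells, 1403 in Fbxw11a cells, 1167 in Fbxw11c cells and 1282 in Fbxw11d cells, and was apart from control cells in each line. Ndrg1 gave 22805, 24016, 15962 and 15158 in the same order, and was lower beyond spot error in Fbxw11c and Fbxw11d cells. Cdkn1a, the cell cycle inhibitor p21, gave 883, 808, 614 and 735 in that order, and was apart in the same lines at this probe, while a dimmer probe was at -0.07, 0.18 and -0.29 on the log2 scale, none of them apart. In the other direction Cdkn2b, the inhibitor p15, was higher beyond spot error in Fbxw11a and Fbxw11d cells (0.37 and 0.25), and Cdkn1b, the inhibitor p27, in Fbxw11d cells (0.41). The medians were -0.10, -0.21 and -0.08.

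The AP-1 targets held differences past 2-fold in both directions. Of 18 genes 14 could be compared, and in each variant line Il6 and Csf2 were at least 2-fold lower and Fasl at least 2-fold higher. Fasl, the death ligand of the TNF family, had signals of 517 in control cells, 1145 in Fbxw11a cells, 1453 in Fbxw11c cells and 1877 in Fbxw11d cells. All 3 variant lines lay above control cells, by 2.22-, 2.81- and 3.63-fold. Il6, a cytokine of inflammation, gave 104 in control cells, 13.6 in Fbxw11a cells, 7.68 in Fbxw11c cells and 14.4 in Fbxw11d cells, lower by 7.63-fold, by at least 6.98-fold (not well above background) and by 7.22-fold. Csf2, the cytokine GM-CSF, gave 74.7, 9.41, 22.5 and 18.4 in the same order, lower by at least 5.20-fold in Fbxw11a cells (not well above background), and by 3.31- and 4.05-fold in Fbxw11c and Fbxw11d cells. Both cytokines had dim signals in the variant lines, and in Fbxw11a cells 1 of the 2 Il6 spots was well above background, so that its 7.63-fold rests on a signal below the floor used for bounds on that array. Plau, the urokinase protease, gave 305 in control cells, 415 in Fbxw11a cells, 571 in Fbxw11c cells and 424 in Fbxw11d cells, and the secreted phosphoprotein Spp1 gave 14212, 17706, 17993 and 17615. Both were apart from control cells in each line without reaching 2-fold. Tgfb1, a cytokine of the TGF-β family, was lower beyond spot error in Fbxw11a and Fbxw11c cells (-0.25 and -0.33), and Hmox1, a heme oxygenase, in Fbxw11a cells (-0.30). By spot error 5 genes of the list were higher and 3 lower in Fbxw11a cells, 4 higher and 2 lower in Fbxw11c cells, and 5 higher and 2 lower in Fbxw11d cells. The medians of the list, 0.13, 0.01 and 0.02, lay near the 0.01, 0.02 and 0.04 of all genes.

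**Figure D5:**
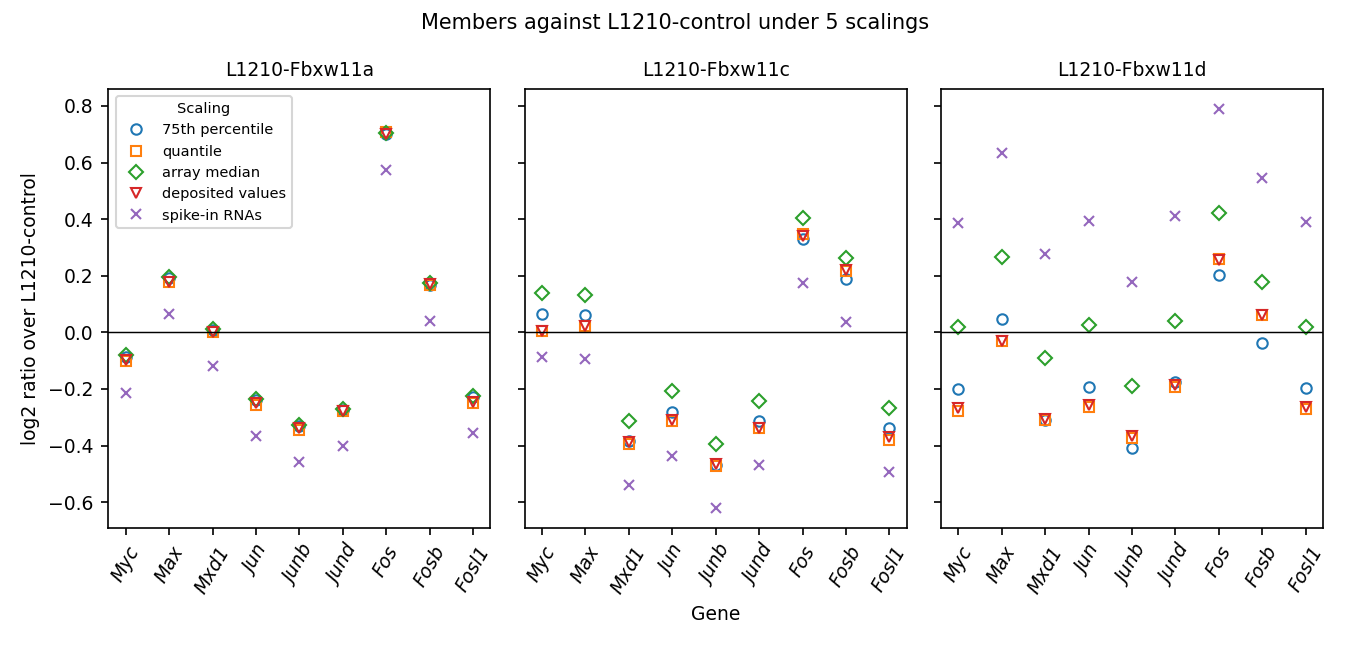
log2 ratio of each measured member over control cells when the arrays were scaled on the 75th percentile, by quantile normalization, on the array median, as in the deposited values, or on the spike-in RNAs. In Fbxw11a and Fbxw11c cells, Fos is the highest member and Junb is the lowest under every scaling. In Fbxw11d cells the whole set of members moves up with the array median and the spike-in RNAs, so that Junb runs from -0.41 to 0.18 and Fos from 0.20 to 0.79.

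How far the directions rest on the scaling differed by line. In Fbxw11a and Fbxw11c cells Jun, Junb, Jund and Fosl1 were below control cells and Fos and Fosb above them under all of the scalings. In Fbxw11d cells scaling on the spike-in RNAs put every measured member above control cells, by 0.18 to 0.79 on the log2 scale, and it moved the median of all genes to 0.62. Relative to that median Junb was at -0.45, Jun at -0.23, Jund at -0.21, Fosl1 at -0.24 and Fos at 0.16.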

How the data were processed

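RNA of 4 L1210 lines was labelled with Cy3 and hybridised to 1 Agilent mouse array each. The authors deposited the Feature Extraction output (version 9.1 per the labels, 10.7.1.1 per the file headers), with a background-corrected intensity per spot and flags. They also deposited a table of log2 values normalized across arrays by a method not given in the sources used here, with gene symbols and mm9 positions.

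Spots flagged as outliers were left out. The log2 of each intensity was set against the 75th percentile of all gene spots on its array (620.2, 627, 672 and 954 in control, Fbxw11a, Fbxw11c and Fbxw11d cells), and the mean was taken where a probe had several spots. Probes with at least 0.5 of their spots flagged as well above background were called measured. A gene was compared when it was measured on at least 1 of the compared arrays, and was represented by its probe of highest mean signal. Where 1 side was not above background the fold is a bound, against the higher of the probe's own signal and a floor, the lowest signal of any probe whose spots all carried that flag (14.5 to 18.1). The threshold was 2-fold, as in the methods. Spot SDs were medians in 10 brightness bins. Having 1 array per line limits the precision, so that lines were compared without a statistical test. The script that made the calls was tested on simulated arrays with known changes.

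Members, lists and alternatives were chosen with earlier results of these data known. The text names every member, list genes at least 2-fold apart and measured on all 4 arrays, and the 5 genes nearest to the member of widest range. Csf1r, among the markers, also met this rule in Fbxw11d cells, and some genes are not reported here. Alternatives were normexp background correction (limma 3.58.1, R 4.3.3, offset 50), quantile normalization, median centring, the deposited log2 values, other filters on dim probes, flagged spots kept, thresholds of 1.5 and 3, and the mean of the probes of a gene. Scaling on spike-in RNAs and 5 brightness bins were added after the data were seen. Other steps used Python 3.11.15, numpy 2.4.6 and pandas 2.3.3.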

Additional observations from a re-analysis of the deposited data

How the results depend on the processing

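No member reached 2-fold between any pair of lines under any setting, except that with a threshold of 1.5 there was 1, Fos in Fbxw11a cells. The number of members apart beyond spot error depended more on the settings, which for this count were chosen after the data were seen. With normexp background correction it was 1 for Fbxw11a cells against control cells (6 in the main setting), 1 for Fbxw11a cells against Fbxw11d cells (2) and 0 for Fbxw11c cells against Fbxw11d cells (1). For Fbxw11d cells against control cells, where the main setting gave 2, it was 6 with quantile normalization, 6 with the deposited values, 1 with the mean of the probes of a gene, 1 with 5 brightness bins and 7 with scaling on the spike-in RNAs. It was also 2 with median centring, but these were Max and Fos, both higher, in place of Mxd1 and Junb, both lower. For Fbxw11a cells against Fbxw11d cells it was 4 with median centring, 8 with the spike-in RNAs and 1 with 5 brightness bins, and for Fbxw11c cells against Fbxw11d cells it was 3 with median centring and 9 with the spike-in RNAs. Between Fbxw11a and Fbxw11c cells median centring added Myc (log2 ratio -0.22) to the members apart. Of the members apart from control cells, Mxd1 and Junb changed direction in Fbxw11d cells, to 0.28 and 0.18 on the log2 scale, with the spike-in RNAs. Median centring and the spike-in RNAs moved the median of all genes in that line to 0.26 and 0.62, and the spike-in RNAs moved it to -0.12 and -0.14 in Fbxw11a and Fbxw11c cells.

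Of the 88 genes in the 7 lists, 4 were at least 2-fold apart from control cells in each line. This was 2 in Fbxw11a cells with normexp, 8 in Fbxw11a cells and 8 in Fbxw11d cells without a filter on dim probes, 2 in Fbxw11a cells and 2 in Fbxw11c cells with both arrays above background, 7 in Fbxw11c cells with a threshold of 1.5, 2 in Fbxw11a cells with a threshold of 3, and 10 in Fbxw11d cells with the spike-in RNAs. Over all genes, the counts at least 2-fold apart were 798, 688 and 1060 in Fbxw11a, Fbxw11c and Fbxw11d cells, and 245, 210 and 457 with normexp, 2004, 1837 and 2829 without the filter, and 444, 361 and 723 with both arrays above background. In Fbxw11d cells 194 genes were higher and 866 lower, which became 323 and 619 with quantile normalization, 400 and 583 with median centring, 316 and 614 with the deposited values, and 1891 and 344 with the spike-in RNAs. No paired analysis was possible because each line has 1 array. The cause of these shifts was not tested. Dim probes limit what can be read, since spot SDs rise towards background, and this bears on Fosb, Il6 and Csf2.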
